A study of Mus musculus with 8 samples.

Results

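Vascular adhesion receptors that hold leukocytes to endothelium were measured in mouse hemogenic endothelium, a class of endothelial cell that gives rise to blood, without and with overnight induction of the transcription factor Runx1. The set held 8 genes (Icam1, Icam2, Vcam1, Madcam1, Sele, Selp, Alcam and Mcam), chosen by name with earlier results of these data known. They were represented by every array probe whose RefSeq entry carried 1 of these symbols. That gave 11 of 55681 probes, and all 8 genes were among the 14504 that could be tested, of 20145 named genes on the array. Relative to the rest of the array, every one of the 8 genes was lower in the induced than in the uninduced culture of each replicate number, with mean differences from -0.41 (Mcam) to -2.84 (Vcam1) on the log2 scale, apart from Sele, whose size is only a bound because 1 induced array was not well above background. Icam1 and Vcam1 fell past the threshold, 3.13-fold and 7.18-fold, and the other 6 did not pass in the fit without pairing. With arrays paired by replicate number, Icam2, Madcam1, Sele (with its value as measured) and Alcam passed as well, so that 6 of the 8 fell. Over all genes, 2.16% fell without pairing and 6.81% with it, and 21.8% were lower in all 3 replicate pairs.

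Both groups were iRUNX1 cells of the C57BL/6 background, which carry Runx1 under a Tet-on (doxycycline-inducible) system. Embryoid bodies were grown from embryonic stem cells for 3.25 days, Flk-1+ cells were sorted, cultured and sorted once more, and these cells were grown for 2 days as hemogenic endothelium, with Oncostatin, basic FGF and SCF in the medium of both groups. The uninduced group (DOX-, labelled control) and the induced group (DOX+, doxycycline overnight at 0.3 µl/ml, the unit given in the labels) held 3 replicates each, plus 1 technical repeat array per group that stayed out of the test. The labels do not say which replicate the technical repeats belong to, whether the line is a single clone, or whether cells without the transgene were also given doxycycline, so an effect of the drug itself and of Runx1 cannot be told apart. Both Runx1 probes were dim: 1 was well above background on 0 of the 6 arrays, and the other, well above background on 5 of 6, read -4.71, -4.72 and -4.28 in the uninduced and -6.14, -5.71 and -4.95 in the induced replicates, so neither was higher after induction. The sources used here do not say whether these probes match the part of Runx1 in the transgene, so they do not check the labels.

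Leukocytes leave the bloodstream in steps. Selectins (Sele, Selp) on the vessel wall bind sugar ligands and let leukocytes roll. Immunoglobulin-family receptors then bind leukocyte integrins and stop them: Icam1 and Icam2 bind the integrin LFA-1, Vcam1 binds VLA-4, and Madcam1, the addressin of gut vessels, binds the integrin with the beta-7 chain. Alcam binds CD6 on T cells, and Mcam (CD146) is a junctional receptor of endothelium and pericytes. In mature endothelium Icam1, Vcam1 and Sele are classic targets of inflammatory cytokines acting through NF-kB, whereas Icam2 and Mcam are present on resting endothelium.

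The 250 bases before the transcription start are shown for Icam1, which fell, and for Sele and Madcam1, the 2 with a motif match. These windows come from the RefSeq promoter table of GRCm38.p6, which held 6 of the 8 genes. Shared regulation of the 8 genes was not tested. The strand of the gene is printed 5′ to 3′, and capitals mark the matches to the motifs searched on both strands: the RUNX core (TGTGGT or TGCGGT), the AP-1 site (TGACTCA or TGAGTCA), the GATA site (AGATAA or AGATAG, also with T as the first letter), the TATA box (TATAAA) and the NF-kB consensus. The windows of Icam1 (chr9:21015690-21015939, plus strand), Sele (chr1:164047984-164048233, plus strand) and Madcam1 (chr10:79664309-79664558, plus strand) read as follows.
Icam1: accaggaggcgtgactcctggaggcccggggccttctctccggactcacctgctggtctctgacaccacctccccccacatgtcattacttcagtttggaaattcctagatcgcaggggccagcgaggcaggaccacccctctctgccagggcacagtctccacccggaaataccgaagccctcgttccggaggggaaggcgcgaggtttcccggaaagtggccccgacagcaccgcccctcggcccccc
Sele: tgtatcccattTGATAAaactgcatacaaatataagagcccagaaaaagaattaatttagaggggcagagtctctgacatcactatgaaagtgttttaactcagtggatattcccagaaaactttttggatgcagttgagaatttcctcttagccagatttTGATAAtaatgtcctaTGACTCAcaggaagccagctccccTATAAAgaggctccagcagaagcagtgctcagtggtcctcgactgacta
Madcam1: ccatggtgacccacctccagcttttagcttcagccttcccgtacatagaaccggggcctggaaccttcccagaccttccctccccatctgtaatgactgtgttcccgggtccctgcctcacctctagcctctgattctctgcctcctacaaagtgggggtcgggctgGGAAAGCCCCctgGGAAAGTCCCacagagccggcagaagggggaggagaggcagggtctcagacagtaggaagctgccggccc

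The Sele window held GATA sites beginning 239 and 89 bases before the start, an AP-1 site at 73 and a TATA box at 49. The Madcam1 window held NF-kB consensus matches on the opposite strand at 83 and 70 bases before the start. No motif was matched in Icam1, Selp, Alcam or Mcam. The NF-kB consensus was searched as GGG, A or G, any base, any base, C or T, C or T, then CC. Sites that depart from these letters were not marked. The RUNX core, which 18.6% of all 32851 promoter windows of this length held, was in 0 of the 6. The NF-kB consensus was in 1 of the 6 (7.25% of all windows), the AP-1 site in 1 (4.46%), the GATA site in 1 (26.5%) and the TATA box in 1 (12.4%). A missing match says only that these letters are not in the window, and nothing about binding was measured here.

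Levels are log2 processed signals relative to the 75th percentile of the same array, so 0 is the signal that 75% of spots fall below. Levels of different probes cannot be set against each other. A change is the mean of the 3 induced minus the mean of the 3 uninduced replicates, with its standard error (SE) and a limma p-value adjusted over all 14504 genes, and the threshold was an adjusted p under 0.05. At that threshold 6.31% of all genes passed, 4.14% upward and 2.16% downward, while of the 8 receptor genes 0 rose and 2 fell. At an unadjusted p under 0.05 the limma fit gave 5 falls and 0 rises among the 8. No share of all genes at that unadjusted p is given for this fit. The unadjusted counts here and for the lists below thus have no background to be read against. The median change of the 8 was -1.69, beside 0.09 for all genes. RNA came from whole cultures, so fewer cells that carry a receptor and less RNA per cell cannot be told apart.

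**Figure D1:**
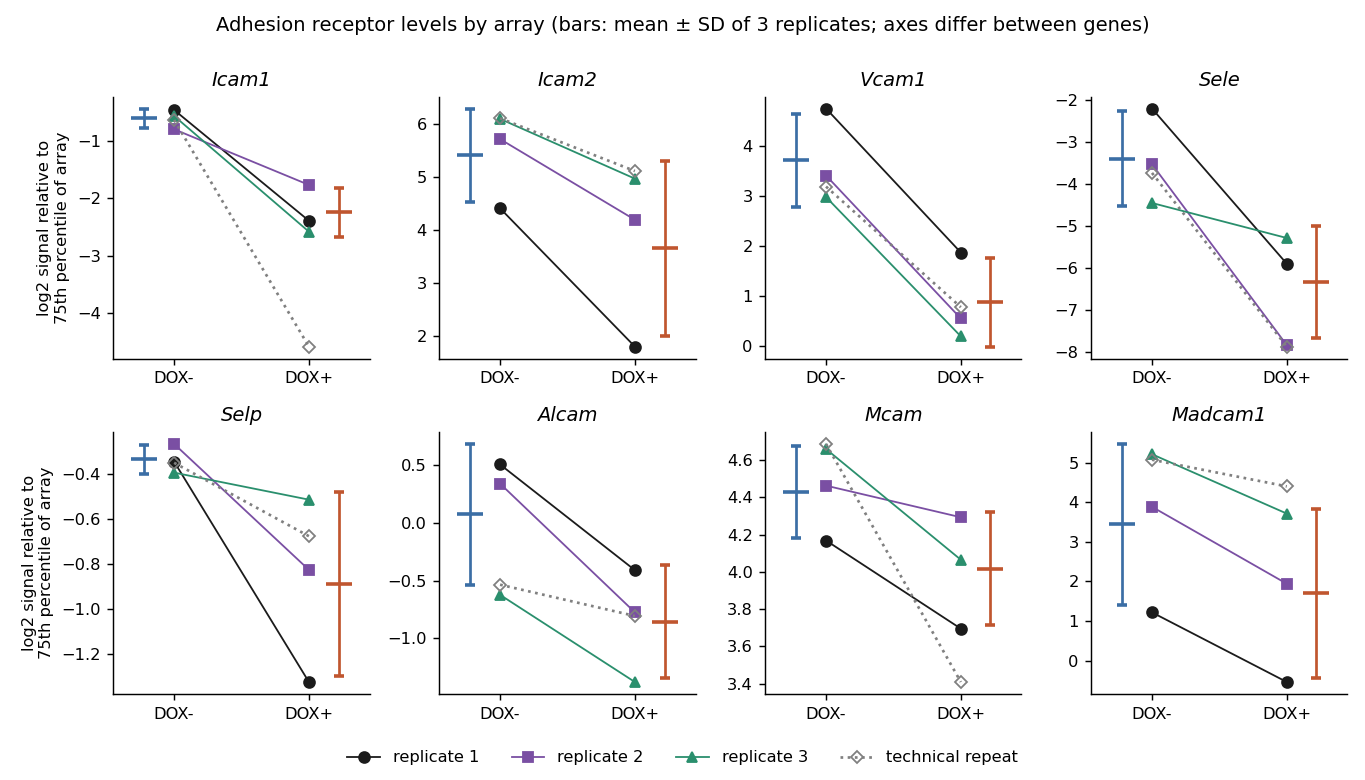
Level of each receptor gene on each array, as log2 signal relative to the array's 75th percentile, for uninduced (DOX-) and induced (DOX+) cultures; lines join arrays of the same replicate number, grey diamonds are the technical repeats, and bars give the mean ± SD of 3 replicates. All lines slope down, the groups do not overlap for Icam1, Vcam1, Sele and Selp, and replicate 1 (black) is lowest in both groups for Icam2 and Madcam1 but highest in both for Vcam1 and Alcam. The lowest Sele points in the induced group are not well above background.

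Icam1, the LFA-1 ligand that firmly arrests leukocytes, read -0.45, -0.79 and -0.56 in uninduced replicates 1 to 3 and -2.39, -1.76 and -2.58 in induced replicates 1 to 3. The lowest uninduced array lay 0.97 above the highest induced one. Icam1 fell by 1.64 (SE 0.24, adjusted p = 0.0127), and the call held with any single array left out. In the technical repeats Icam1 read -0.63 uninduced and -4.59 induced, the latter below all 3 induced replicates.

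Vcam1, the VLA-4 ligand that is also present on stromal cells of blood-forming tissue, was measured by 2 probes. The brighter read 4.76, 3.42 and 2.99 uninduced and 1.88, 0.56 and 0.20 induced, with 3.20 and 0.78 in the technical repeats. All induced values lay below all uninduced ones, and replicate 1 was highest in both groups. Vcam1 fell by 2.84 (SE 0.59, adjusted p = 0.0395). The difference within each replicate number was nearly the same, at -2.88, -2.86 and -2.79, and a block on replicate number brought the SE to 0.11 (adjusted p = 0.000997). Without the block the call was lost when any array but induced replicate 1 was left out (adjusted p 0.0520 to 0.120). The other probe read 0.66, -0.49 and -1.18 uninduced and -2.25, -3.12 and -3.95 induced, a difference of -2.77, so both probes gave the same size of fall.

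Icam2, an LFA-1 ligand that endothelium carries at rest, read 4.41, 5.72 and 6.10 uninduced and 1.81, 4.20 and 4.97 induced. The groups overlapped, because uninduced replicate 1 lay below induced replicate 3. The change of -1.75 (SE 0.85, adjusted p = 0.288) did not pass, and with a block on replicate number it did (SE 0.30, adjusted p = 0.0209). The pair differences were -2.61, -1.52 and -1.13.

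Madcam1, the gut addressin, spread most widely among replicates: 1.22, 3.89 and 5.21 uninduced and -0.54, 1.94 and 3.71 induced. The uninduced replicates alone spanned 3.99 on the log2 scale, and the groups overlapped. Its change was -1.73 (SE 1.33, adjusted p = 0.476), yet the pair differences of -1.76, -1.94 and -1.50 were alike, and with the block Madcam1 passed (SE 0.14, adjusted p = 0.00291). A dimmer Madcam1 probe read -3.74, -1.59 and -0.46 uninduced and -4.64, -2.90 and -2.43 induced, a difference of -1.39.

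Sele (E-selectin), the rolling receptor that endothelium makes after cytokine stimulation, was near the limit of detection. It read -2.20, -3.52 and -4.45 uninduced and -5.90, -7.84 and -5.28 induced, and was well above background on 3 of 3 uninduced and 2 of 3 induced arrays. The groups did not overlap, and replicate 3 differed by -0.84 and replicate 1 by -3.70. Induced replicate 2 was the array not well above background, so its difference is a bound: set at the lowest signal well above background on that array, it was -2.08, and the mean change was then -2.21. With the value as measured the change of -2.95 (SE 0.79, adjusted p = 0.0886) did not pass. With the replicate number as a block Sele passed (adjusted p = 0.0460), and with normexp background correction, which shrinks dim signals, the change was -1.20 and passed as well (adjusted p = 0.0321). The size of the Sele difference thus changed with the background correction.

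Selp (P-selectin), which is stored in endothelial and platelet granules, was printed 10 times on each array, and spots of 1 array scattered by an SD of 0.044 to 0.24. It read -0.34, -0.27 and -0.39 uninduced and -1.32, -0.83 and -0.51 induced. The groups did not overlap, but the gap between them was only 0.12. Its change of -0.55 (SE 0.22, adjusted p = 0.217) did not pass, nor did it with the block (adjusted p = 0.116).

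Alcam (CD166), the CD6 ligand, read 0.51, 0.34 and -0.62 uninduced and -0.41, -0.78 and -1.38 induced. Uninduced replicate 3 lay between the induced values, so the groups overlapped. The change was -0.93 (SE 0.37, adjusted p = 0.214), and with the replicate block Alcam passed (SE 0.13, adjusted p = 0.0121).

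The 2 probes of Mcam disagreed in size. The brighter read 4.17, 4.46 and 4.66 uninduced and 3.70, 4.29 and 4.07 induced, with overlapping groups and a change of -0.41 (SE 0.21, adjusted p = 0.317) that did not pass with the block either (adjusted p = 0.107). The dimmer read -0.35, -0.55 and -0.60 uninduced and -2.39, -1.67 and -2.64 induced, a difference of -1.73 with no overlap, which passed in a fit over probes (adjusted p = 0.0196). In the technical repeats the dimmer probe read -0.41 and -5.81. Averaging the probes gave Mcam a change of -1.07 (adjusted p = 0.0301), so its call depends on the probe.

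**Figure D2:**
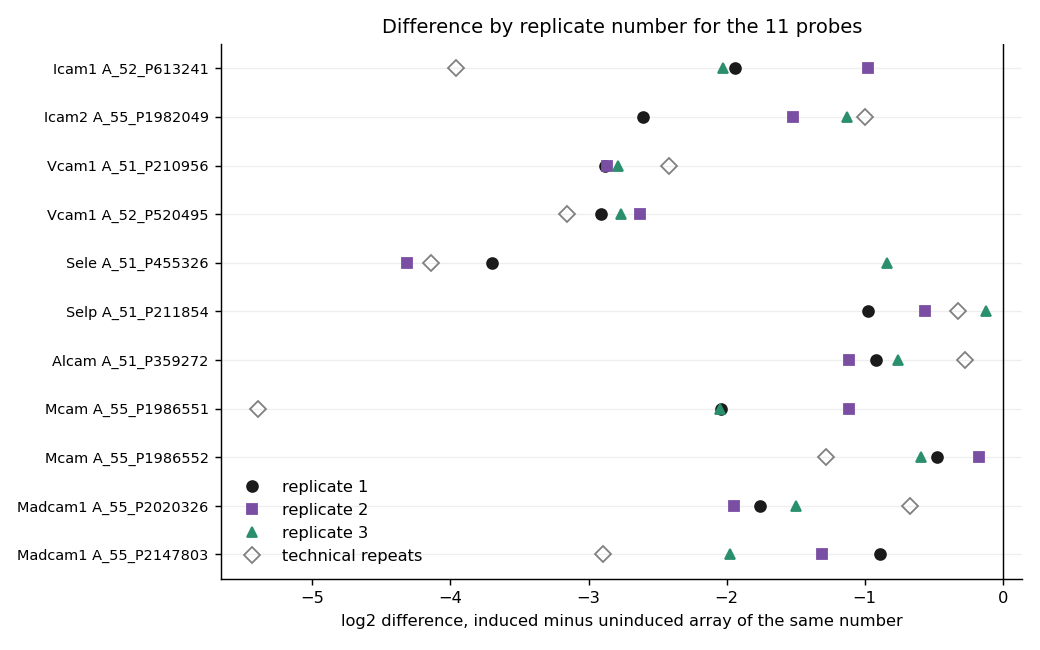
Log2 difference between the induced and the uninduced array of the same replicate number, for each of the 11 probes of the 8 genes, with the difference between the technical repeats as open diamonds. All points lie below 0, the Vcam1 probes are the tightest, and the dimmer Mcam probe is lowest in the technical repeats, at -5.40, with Icam1 at -3.96. The Sele points of replicate 2 and of the technical repeats, and the technical repeat point of the dimmer Mcam probe, rest on induced arrays not well above background.

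By replicate number, all 24 of 24 differences of the 8 genes were below 0. Over all genes, 21.8% were below 0 in all 3 pairs. The technical repeats, which took no part in the fit, were below 0 for 8 of 8 genes and 11 of 11 probes, where 36.6% of all genes were below 0 between these arrays and their median difference was 0.26. These repeats may hold RNA of a replicate already tested, so they are not an independent check of direction. For 4 of the 8 genes (Icam1, Vcam1, Sele and Selp) all induced arrays lay below all uninduced ones, which held for 8.71% of all genes. With the replicate number as a block 6 of the 8 fell, all but Selp and Mcam, where 6.81% of all genes fell. In that blocked fit 1359 of the 14504 genes rose.

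The arrays carry codes in the labels whose first digit parts replicates 1 and 2 from replicate 3 and the technical repeats. Within the first set Icam1 differed by -1.46 and Vcam1 by -2.87, and in replicate 3 alone by -2.02 and -2.79. With this code as a block Icam1 (adjusted p = 0.0183), Vcam1 (0.0255) and Alcam (0.0344) fell. In that fit 397 of all 14504 genes fell and 621 rose.

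These changes are relative to each array's own 75th percentile. Measured against the labelled spike-in RNA, of which the 4 brightest probes were used, that percentile was itself higher in the induced array by 1.02, 0.75 and 1.61 (mean 1.13, SD 0.44), and by 0.35 in the technical repeats. Scaling to the spike-in therefore raised the median change of all genes from 0.09 to 1.22, and 0 of the 8 genes fell (limma, 2 at an unadjusted p under 0.05). On that scale Vcam1 was still below 0 in every pair (-1.86, -2.12 and -1.18), as was Icam1 (-0.92, -0.23 and -0.41), with adjusted p of 0.157 and 0.512 for their mean changes of -1.72 and -0.52. The limma fit on that scale gave all 8 genes the same SE, 0.72, so its p-values do not reflect each gene's own spread. Sele, Icam2 and Madcam1 were below 0 in 2 of 3 pairs. Selp (0.58), Alcam (0.20) and Mcam (0.72) turned to values above 0. The direction of these last 3 genes thus depends on the scaling. All 8 lay below the median of all genes. The scaling cannot alter that, because it moves the mean change of every gene by the same amount.

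**Figure D3:**
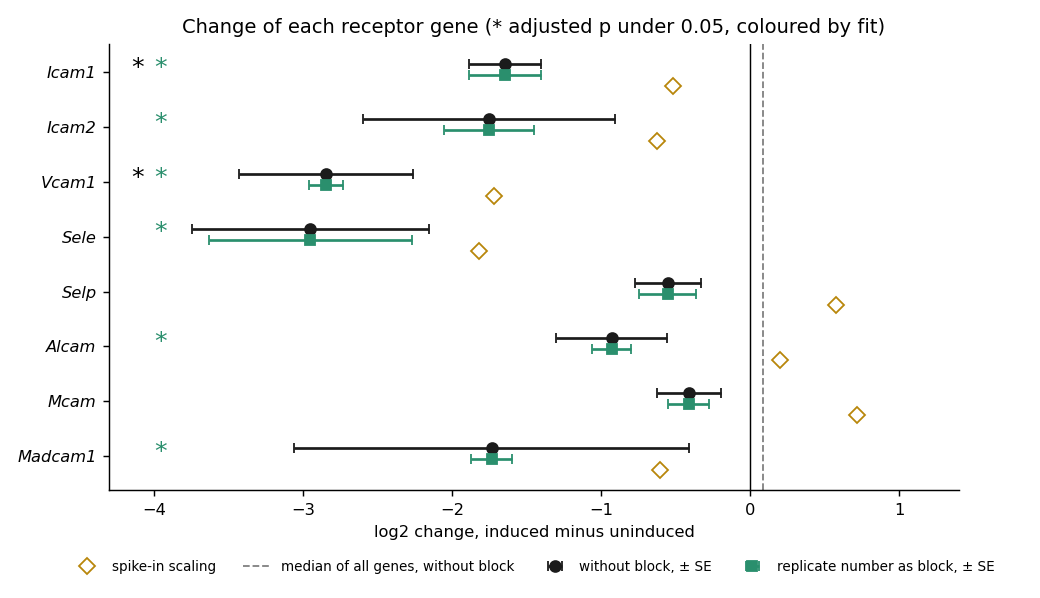
Log2 change of each receptor gene, induced minus uninduced, as points with SE bars for the fit without a block (black) and blocked on replicate number (green), and with spike-in scaling (open diamonds, no error shown); stars mark adjusted p under 0.05 in the fit of that colour. Black and green points coincide. The green bars are shorter, most of all for Madcam1, but hardly so for Icam1 (SE 0.241 without and 0.239 with the block). Spike-in scaling moves every gene up by 1.13, which puts Selp, Alcam and Mcam above 0. The Sele points rest on an induced array not well above background.

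The leukocyte side of the same contacts was covered by 14 tested counter-receptors, with 3 rises, 0 falls (also 0 at an unadjusted p under 0.05 in limma), 11 that did not pass and a median change of 0.39. With the replicate block 4 rose. Spn (CD43, a sialomucin of blood cells) read -4.53, -4.34 and -3.56 uninduced and -0.38, 0.81 and 0.69 induced, a rise of 4.51 (SE 0.39, adjusted p = 0.00275). Itgal, the alpha chain of LFA-1, rose by 1.29 (SE 0.25, adjusted p = 0.0339). With normexp background correction Spn rose by 2.83 (adjusted p = 0.00498). Itgal then changed by 0.64 (adjusted p = 0.184) and did not pass. Spn is a marker on the blood progenitor list too. Apart from Itgal, integrin chains that pair with the receptors above did not pass, among them Itgb2 (0.59), Itga4 (-0.51), Itgb1 (-0.32) and Itgb7 (0.86).

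Icam1 is followed on chromosome 9, in the RefSeq gene order, by Icam4 (1.15, SE 0.30, adjusted p = 0.0799) and Icam5 (-0.10, adjusted p = 0.781), neither of which passed.

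Other vascular adhesion and transmigration receptors held 23 tested genes, and 0 of them rose or fell, with a median change of -0.28. At an unadjusted p under 0.05 limma gave 2 rises and 5 falls, and 18 of the 23 were below 0. With the replicate number as a block 3 rose and 5 fell, where 1359 of all 14504 genes rose and 987 fell. Pecam1, the homophilic receptor of endothelial junctions, changed by -0.73 (adjusted p = 0.364) and Cdh5, VE-cadherin, by -0.28 (adjusted p = 0.751).

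Enzymes that build selectin ligands gave 3 rises and 1 fall among 14 tested genes, with a median of 0.12, and 4 rises and 3 falls with the replicate block. Fut7, the fucosyltransferase of sialyl Lewis x, and Chst4, a sulfotransferase of selectin ligands, were well above background on 0 of 3 uninduced arrays. Their folds are bounds, the mean induced level over the lowest signal well above background on each uninduced array: Fut7 was at least 2.67-fold higher (adjusted p = 0.00555) and Chst4 at least 4.58-fold higher (adjusted p = 0.0105) after induction. With normexp background correction neither passed, with changes of 0.19 and 0.66. The tyrosine sulfotransferases moved in opposite directions: Tpst2 rose by 0.75 (adjusted p = 0.0429), and Tpst1 fell by 0.74 (adjusted p = 0.0285) but was at 0.39 with spike-in scaling.

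Genes of NF-kB signalling and cytokine induction, 31 tested, gave 1 rise and 3 falls and a median of 0.02, and 2 rises and 5 falls with the replicate block. Ccl2, a monocyte-attracting chemokine, read 6.26, 5.80 and 5.29 uninduced and 3.49, 2.90 and 3.01 induced, and fell by 2.65 (SE 0.29, adjusted p = 0.0048). Birc3, an inhibitor of apoptosis, fell by 0.99 (adjusted p = 0.0477) and Relb, an NF-kB subunit, by 0.91 (adjusted p = 0.0243), while spike-in scaling put Birc3 at 0.14 and Relb at 0.22. Irf1, an interferon-responsive transcription factor, rose by 1.30 (adjusted p = 0.00525). Nfkb1 (-0.10), Rela (-0.22) and Tnfrsf1a (0.01) did not pass. Tnf, Il1a, Il1b and Lta, ligands that drive the pathway, were not tested because no probe was well above background in all 3 replicates of either group.

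Cytoplasmic partners and shedding enzymes of these receptors gave 2 rises and 0 falls among 22 tested genes (limma, 4 and 0 at an unadjusted p under 0.05), with a median of -0.01. With the replicate block 3 rose. Ptk2b (a focal adhesion kinase of blood cells) rose by 2.14 (adjusted p = 0.00325) and Lgals3 (galectin-3) by 0.89 (adjusted p = 0.0419). Ezr (-0.21) and Msn (-0.02), which anchor these receptors to actin, did not pass, nor did the sheddases Adam10 (-0.01) and Adam17 (0.18).

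**Figure D4:**
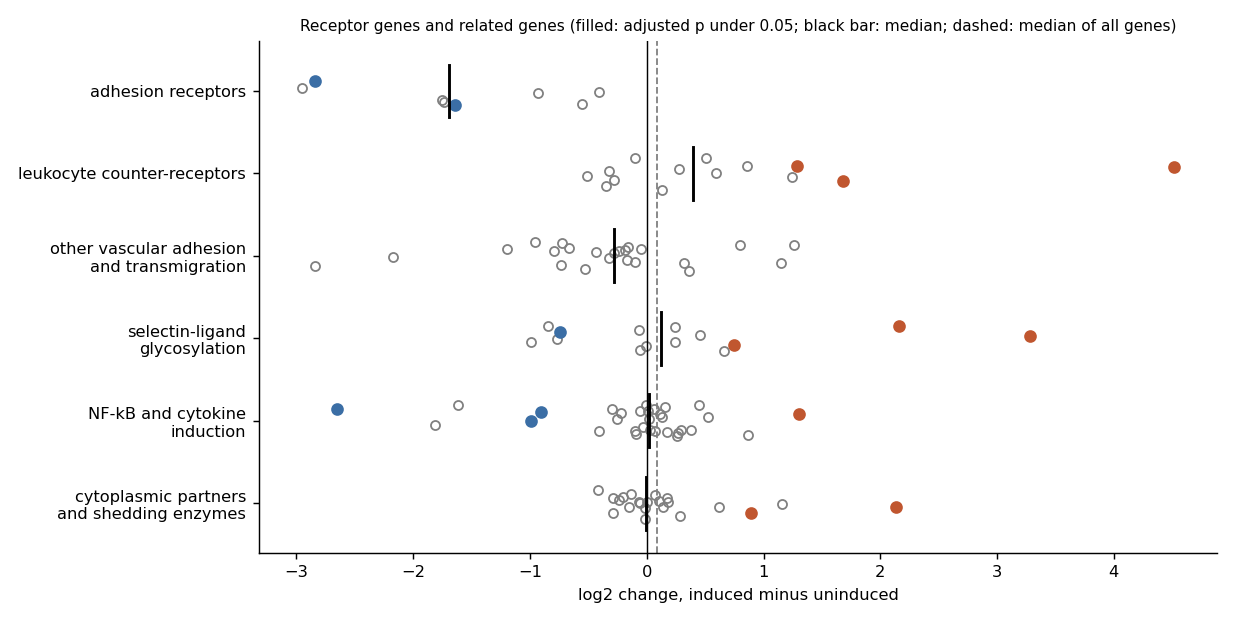
Log2 change of every tested gene in the receptor set and in 5 related groups, as 1 point per gene; filled points passed an adjusted p of 0.05 (blue fell, orange rose), black bars are medians and the dashed line is the median of all genes at 0.09. The receptor genes all lie below 0 with a median of -1.69, while the medians of the 5 groups drawn lie between -0.28 and 0.39; the endothelial markers, not drawn here, had a median of -1.13. Spike-in scaling moves all points up by 1.13.

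Cell type markers were read beside the receptors. All 17 endothelial markers were well above background on every replicate array of both groups, as were 13483 of the 14504 tested genes. Their detection therefore does not identify the cell type. Of the 17 markers 0 rose (also 0 at an unadjusted p under 0.05 in limma) and 4 fell. The 4 changes were -3.54 for Sox17 (adjusted p = 0.0182), -1.36 for Ecscr (0.00921), -1.13 for Tek (0.0414) and -0.92 for Eng (0.0234). The other 13 did not pass. The median change of all 17 was -1.13, 16 of the 17 were below 0, and with the block 11 fell. With spike-in scaling that median was 0.00 and Eng was above 0 (0.21). Of 12 blood progenitor markers 5 rose, Myb (4.79), Spn (4.51), Coro1a (3.43), Gfi1 (3.37) and Was (1.86), and 0 fell, also at an unadjusted p under 0.05 in limma. Of 11 macrophage and granulocyte markers 3 rose and 1 fell: Ncf1 (4.51), Fcer1g (2.79), Fcgr3, at least 5.63-fold higher, and Csf1r (-1.33). With the replicate block 6 rose and 3 fell. With normexp background correction Fcgr3 changed by 0.59 (adjusted p = 0.313) and did not pass, Ncf1 rose by 2.16 (adjusted p = 0.00767), and the median of the 11 went from 1.94 to -0.02. Of 14 mesenchymal and smooth muscle markers 1 fell, Thy1 (-1.65), with a median of -0.62. Thy1 did not pass with normexp (-0.79, adjusted p = 0.149), and with the replicate block 6 of the 14 fell and 1 rose. Only 3 of 9 lymphoid markers could be tested, and 0 passed, also at an unadjusted p under 0.05 in limma. The part of these shifts in the receptor changes was not tested.

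The mean level of the 17 endothelial markers was 2.28, 3.29 and 3.83 in uninduced replicates 1 to 3 and 0.58, 1.75 and 2.76 in induced replicates 1 to 3. Blood progenitor markers averaged -1.93, -1.09 and -1.27 uninduced and -0.19, 0.86 and 0.29 induced. Mesenchymal markers averaged 1.47, 1.53 and 1.29 uninduced and 0.81, 0.97 and 0.59 induced. Replicate 1 was thus lowest for endothelial markers in both groups, as it was for Icam2 and Madcam1. Vcam1 and Alcam ran the other way, with replicate 1 highest in both groups, and Sele was highest in replicate 1 among the uninduced arrays.

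**Figure D5:**
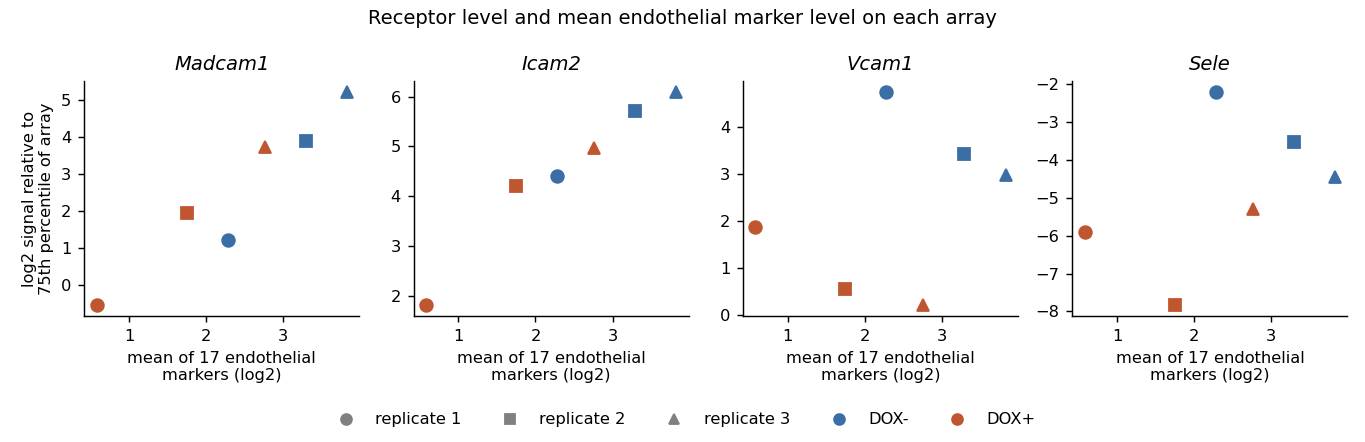
Level of 4 receptor genes (vertical axis, log2 relative to the array's 75th percentile) against the mean level of 17 endothelial markers on the same array (horizontal axis, log2), for 6 replicate arrays; colours are the groups and symbols the replicate numbers. Icam2 and Madcam1 are lowest on the replicate 1 array of each group, where the marker mean is lowest, and Vcam1 is highest there within each group.

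The genes whose profile over the 6 arrays lay nearest to each receptor were found among 13483 genes well above background on all 6, by the root mean square (RMS) difference of levels centred on each gene's own mean. Nearest to Icam2 were Nos3 (endothelial nitric oxide synthase, RMS 0.17), Hoxb8 (0.20) and Erg (an endothelial and blood transcription factor, 0.21). Nearest to Madcam1 were Ushbp1 (0.36), Sparcl1 (0.41) and Ldb2 (0.42). Vcam1 lay nearest to Krtap11-1 (0.17), Serpina3n (an acute-phase protease inhibitor, 0.31) and Serpinb1a (0.34), and Icam1 to Sh3bp5 (0.14) and Mageh1 (0.18). For Alcam the nearest were Cited4 (0.15), Airn (0.15) and Tnni1 (0.16), for Selp Ctsk (0.07), Dnajc10 (0.10) and Gm4861 (0.11), and for Mcam Jak3 (0.05), Ccar2 (0.06) and Hyou1 (0.06). The receptor profiles themselves varied over the 6 arrays by an SD of 0.33 for Mcam to 2.09 for Madcam1, so the small distances for Mcam and Selp go with genes that varied little.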

How the data were processed

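The authors deposited Agilent Feature Extraction output of 8 one-colour arrays of 1 slide and 1 scan, with spot intensity on a linear scale and spot flags as score columns of 0 and 1. The extraction software was version 10.7.3.1 per the file headers, and 10.7.1.1 with limma per the submitters' processing notes. A series-wide table of log2 values, of unstated normalization, was deposited too. Of its 8 columns, whose medians were 5.37, 5.37, 5.38, 5.38, 5.38, 5.36, 5.38 and 5.36, 2 tracked the array they are named for and 6 another (over 19751 bright spots), so it served only as an alternative. The values rise with signal on a log2 scale, and their centring is unknown.

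Control spots and 114 to 246 outlier spots per array were left out, and no spot was saturated. The share of spots well above background was 55.6% to 70.4%, and the 75th percentile signal was 338 to 973. Log2 processed signals were set relative to that percentile and averaged per probe. RefSeq entries named 26582 probes through a GRCm38.p6 gene table and left 29099 unnamed. Probes well above background on all 3 replicates of a group were kept (32858), and the brightest stood for its gene. The test was two-sided, from limma 3.58.1 (lmFit, then eBayes) under R 4.3.3, without a block, and p-values were adjusted by Benjamini and Hochberg's method. The labels call the 3 replicates independent, and the number of arrays limits the precision.

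The pairing by replicate number was read from the arrays themselves. Deviations from the group means correlated at 0.65, 0.45 and 0.43 over 14504 genes between same-numbered arrays. Between arrays of different numbers the values ran from -0.47 to 0.13. The blocked fit used these same arrays, so it is no separate check of the pairing. The blocked value is given for each receptor and list where it changes a call.

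Members and lists were chosen with earlier results of these data known. Named are all members, each list's genes past the threshold (up to 5 per direction) and, for each member well above background on all 6 arrays, the 3 nearest profiles. Some genes that this rule names are not reported here. Genes named without passing, Icam4 and Icam5 among them, were chosen after their values were seen. Alternatives covered background correction, scaling, filter, probe rule, source table, blocks and leaving out each replicate.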

Additional observations from a re-analysis of the deposited data

How the results depend on the processing

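Across the alternatives the number of receptor genes that fell, 2 of 8, ranged as follows, while 0 rose in each. It was 0 with spike-in scaling, 1 with no filter on dim probes, 6 with the replicate block, 6 with the replicate block and normexp together, and 1 to 2 when 1 replicate was left out. It was 0 with the columns of the authors' table read by name, where limma called 0 genes of any kind (222 at an unadjusted p under 0.05). All genes past the threshold, 915, became 534 with no filter, 2346 with the replicate block, 4385 with the block and normexp, and 358 to 822 without 1 replicate. Rises made up 65.7% of calls, 98.5% with spike-in scaling, 76.9% with median centring (median change 0.25) and 48.1% with the block and normexp.

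Counter-receptors past the threshold, 3, became 1 with normexp and 0 in the table by name, and 2 to 3 without 1 replicate. Other vascular receptors, 0, became 1 with normexp, median centring or the table read by the array each column tracks, 2 with spike-in scaling or the array code as a block, 8 with the replicate block, 9 with that block and normexp, and 0 without any 1 replicate. Glycosylation enzymes, 4, became 1 with normexp, 2 with spike-in scaling, no filter or the stricter filter, 0 in the table by name, 7 with the replicate block, 7 with the block and normexp, and 2 to 3 without 1 replicate. NF-kB genes, 4, became 2 with median centring, 1 with spike-in scaling, 0 in the table by name, 7 with the replicate block, 9 with the block and normexp, and 2 to 4 without 1 replicate. Cytoplasmic partners, 2, became 1 with no filter, 0 in the table by name, 5 with the block and normexp, and 1 without any 1 replicate.

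Signs turned for Selp (0.58), Alcam (0.20) and Mcam (0.72) with spike-in scaling, and for Icam1 (0.028), Icam2 (1.20), Selp (0.20), Mcam (0.34) and Madcam1 (1.73) in the authors' table by name, where 6 of 8 columns track another array. Read by the tracked array, that table gave 2 falls. Vcam1 lost its call with no filter (adjusted p = 0.0772). Apart from spike-in scaling and the table by name, Icam1 lay between -1.89 and -1.33 and passed throughout, and Vcam1 lay between -3.34 and -2.33. The reading of the table by tracked array, and the replicate block with normexp, were chosen after the data were seen. The cause of the other shifts was not tested. Signal over background limits Sele and the dimmer probes.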

Other observations

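On the induced technical repeat array 4 of the 11 receptor probes read below all 3 induced replicates and 2 above them, leaving out Sele, which was not well above background there. No share of all probes outside the range of the 3 replicates is given, so these counts have no background to be read against. Icam1 read -4.59 beside -2.39, -1.76 and -2.58, the dimmer Mcam probe -5.81 beside -2.39, -1.67 and -2.64, the dimmer Vcam1 probe -4.35 beside -2.25, -3.12 and -3.95, and the brighter Mcam probe 3.41 beside 3.70, 4.29 and 4.07. Icam2 (5.12) and the brighter Madcam1 probe (4.40) lay above the highest induced replicate, at 4.97 and 3.71. The brighter Vcam1 probe (0.78), Selp (-0.68), Alcam (-0.81) and the dimmer Madcam1 probe (-3.54) lay within the range. On this array the dimmer Mcam probe was not well above background either.

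Several genes of the wider adhesion group had large differences that did not pass. Emcn (endomucin) changed by -2.84 (SE 1.23, adjusted p = 0.243) and Esam, a junctional receptor, by -2.17 (SE 0.80, adjusted p = 0.186). Cd9, a tetraspanin, changed by 1.26 (SE 0.29, adjusted p = 0.0571) and Podxl (podocalyxin) by -0.96 (SE 0.26, adjusted p = 0.0879). These 4 were chosen after their values were seen.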
